A study of Homo sapiens with 2 samples.

Results

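The genes described here encode enzymes that add methyl groups to histone lysines or remove them, and relatives of such enzymes. The subunits of Polycomb repressive complex 2 (PRC2) were left out. The list held 50 genes, 33 of them methyltransferases or relatives with a SET or PRDM domain and 17 demethylases. A gene took its value from a probe set whose platform annotation named that gene alone, and of several such probe sets the one with the highest mean of both arrays was used. By this rule 38 of the 50 genes had a value, among 14232 genes in all.

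The values compare 2 untreated human cell lines of diffuse large B cell lymphoma, SUDHL6 and HT, whose baseline RNA was measured with 1 Affymetrix exon array each. Such an array carries probes along the exons of a gene, and the probes of a set are summarised into 1 log2 value. The lines shared RPMI medium with serum and antibiotics, and the series title places the measurement beside work on a small-molecule PRC2 inhibitor that kills lymphoma cells. Each group is 1 line, so a feature of that line and a feature of the lymphoma it came from cannot be told apart, and with 1 array a line no test, standard error or p-value exists for any difference below.

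Histone lysine methylation is read differently by position. Methylation of lysine 4 of histone H3 (H3K4) marks promoters and enhancers, methylation of H3K36 and H3K79 marks transcribed gene bodies, and methylation of H3K9 marks silent chromatin. Methyltransferases take the methyl group from S-adenosylmethionine. The KDM1 demethylases use a flavin cofactor, and the other demethylases, which share a Jumonji domain, use iron, oxygen and 2-oxoglutarate. In germinal centre lymphomas KMT2D, an H3K4 methyltransferase of enhancers, is among the genes most often mutated. The arrays measured RNA, and neither enzyme activity nor histone methylation.

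Every difference given here is the log2 value of SUDHL6 less that of HT. A gene was called different at a size of 1 or more, provided that its higher value was not under the dim level of that array. The dim level, 3.81 in SUDHL6 and 4.11 in HT, is the 95th percentile of 225 olfactory receptor genes, a family used in smell. Each of the 38 members met this condition, and 37 were at or above the dim level on both arrays. A fold is 2 to the power of the log2 difference, and "at least" marks a fold computed against the dim level because the lower value lay below it. The nearest measure of error came from genes with several probe sets of their own. For 101 genes with 2 that reached the dim level, the 2 differences lay a median of 0.36 apart, 10 pairs (9.90%) were at least 1 apart, and 71 pairs (70.3%) had the same sign. A difference of 1 on a single probe set is therefore within reach of disagreement between probe sets of the same gene.

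As a check of the B cell origin, 9 of 10 B cell markers were measured and reached the dim level in at least 1 of the lines. The B cell linker gene BLNK stood at 9.43 in SUDHL6 and 9.99 in HT. Such markers cannot show which array belongs to which line. MS4A1, which encodes CD20, stood at 11.33 in SUDHL6 against 8.75 in HT, and BANK1 at 6.21 in SUDHL6 against 2.52, below the dim level, in HT. POU2AF1, a B cell coactivator gene, stood at 6.10 in SUDHL6 against 7.49 in HT. These 3 of the 9 were called, and the 9 had 4 positive and 5 negative differences with a median of -0.10. The level was reached by 1 of 7 T cell markers, 0 of 5 myeloid, 2 of 7 fibroblast and endothelial and 2 of 5 epithelial markers. Of these, 0 differed by at least 1. The epithelial marker KRT8 stood as high as 8.27 in SUDHL6 and 8.12 in HT.

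Among the members, 4 of 38 (10.5%) were called different. KDM4C was higher in SUDHL6, and KDM4D, KDM2A and SETD3 were higher in HT. Of all 14232 genes 8.12% were called, 3.5% higher in SUDHL6 and 4.62% higher in HT. The excess toward HT, 498 genes higher in SUDHL6 and 657 in HT, turned with the scaling, to 576 higher in SUDHL6 and 568 in HT after quantile and 581 and 564 after loess normalization. Of the 9405 genes that reached the dim level 12.3% were called, 5.3% higher in SUDHL6 and 6.99% higher in HT, so the share among the members was near the background. At the smaller threshold of 1.5-fold, 5 members (13.2%) were higher in SUDHL6 and 6 (15.8%) in HT, against 11.2% and 16.1% of genes that reached the dim level. Together these were 28.9% of the members and 27.4% of those genes. The median difference of the 38 was -0.06, beside -0.04 over all genes and -0.05 over genes that reached the dim level.

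**Figure D1:**
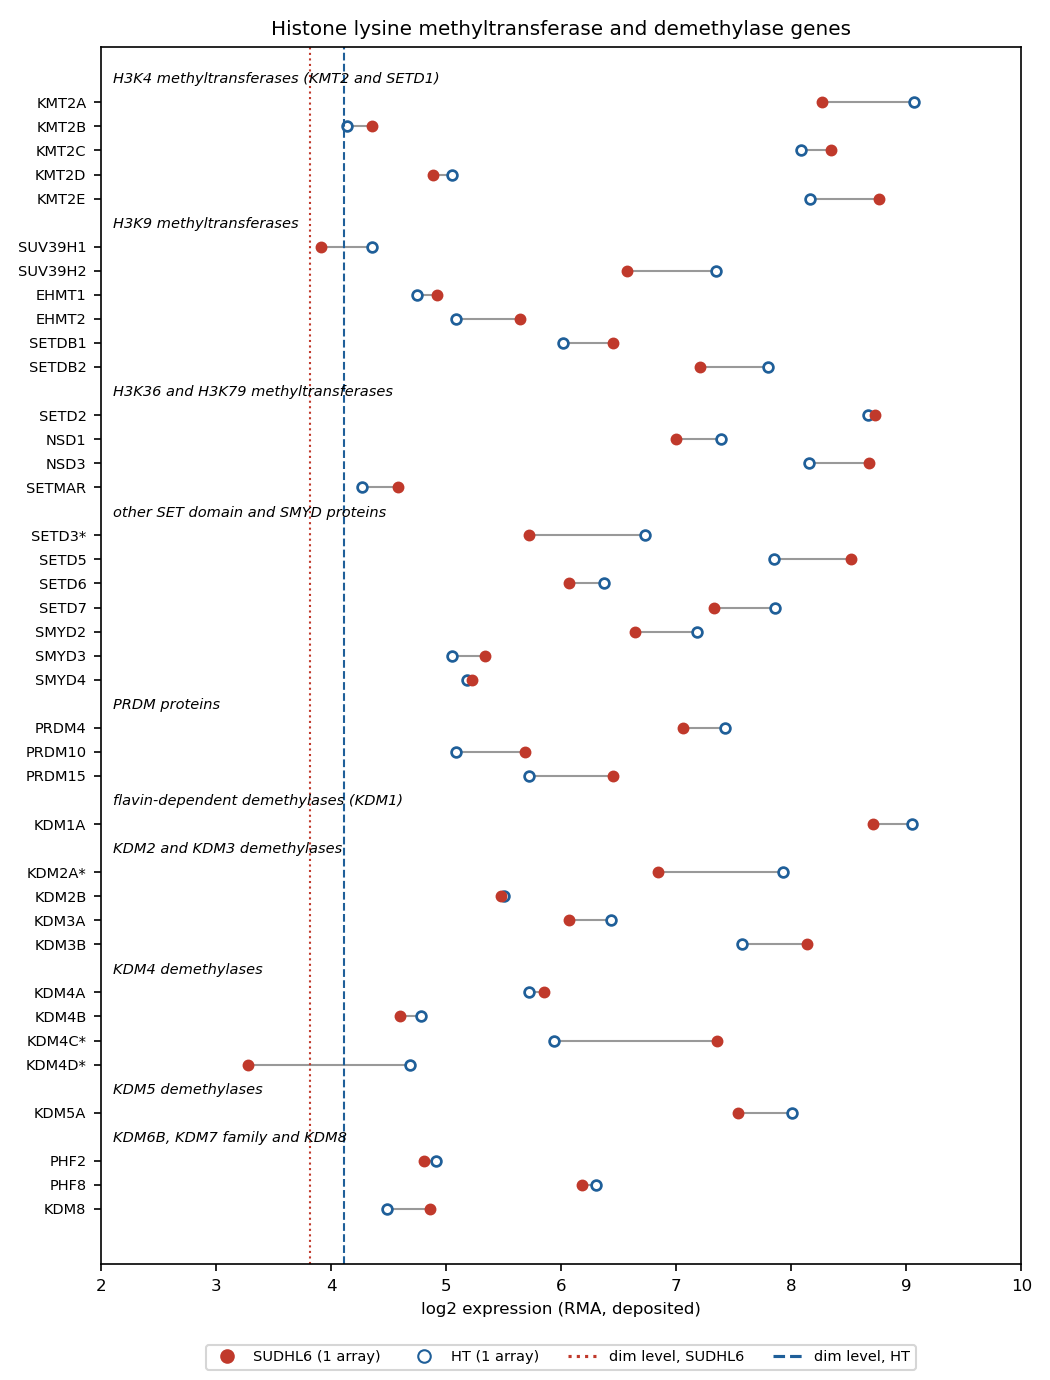
Deposited log2 expression value (x axis) of each of the 38 members with a value, grouped by enzyme class, in SUDHL6 (filled red) and HT (open blue), 1 array each. Vertical lines mark the dim level of each line (3.81 in SUDHL6, dotted, and 4.11 in HT, dashed), and a star marks the 4 members called different. The SUDHL6 value of KDM4D is the point left of its line's dim level.

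The promoters of the 4 called genes are shown because these genes are the ones called here. KDM4C alone kept its call under every alternative tried, of which only the normalizations changed its difference. Each stretch is the 250 bases before the outermost annotated start of the gene, from RefSeq on GRCh38.p14, written 5′ to 3′ along the gene with CpG dinucleotides in capitals. KDM4C lies at chr9:6757723-6757972 on the plus strand, KDM4D at chr11:94973459-94973708 on the plus strand, KDM2A at chr11:67119013-67119262 on the plus strand and SETD3 at chr14:99480860-99481109 on the minus strand.
KDM4C: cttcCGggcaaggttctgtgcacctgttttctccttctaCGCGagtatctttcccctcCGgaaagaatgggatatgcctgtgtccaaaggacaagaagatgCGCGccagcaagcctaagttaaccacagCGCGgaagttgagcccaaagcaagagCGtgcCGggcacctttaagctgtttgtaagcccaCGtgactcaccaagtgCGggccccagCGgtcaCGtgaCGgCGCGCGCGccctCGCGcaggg
KDM4D: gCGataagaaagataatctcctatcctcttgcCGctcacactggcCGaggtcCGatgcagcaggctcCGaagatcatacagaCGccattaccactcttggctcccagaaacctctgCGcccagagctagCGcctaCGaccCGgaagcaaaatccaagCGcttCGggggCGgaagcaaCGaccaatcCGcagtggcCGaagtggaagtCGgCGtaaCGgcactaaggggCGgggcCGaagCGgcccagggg
KDM2A: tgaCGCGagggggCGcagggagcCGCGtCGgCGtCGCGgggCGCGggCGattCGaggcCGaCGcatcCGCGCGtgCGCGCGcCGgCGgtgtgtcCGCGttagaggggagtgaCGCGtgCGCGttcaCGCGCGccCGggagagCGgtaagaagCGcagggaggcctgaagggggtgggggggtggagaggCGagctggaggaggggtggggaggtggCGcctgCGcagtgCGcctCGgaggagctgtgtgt
SETD3: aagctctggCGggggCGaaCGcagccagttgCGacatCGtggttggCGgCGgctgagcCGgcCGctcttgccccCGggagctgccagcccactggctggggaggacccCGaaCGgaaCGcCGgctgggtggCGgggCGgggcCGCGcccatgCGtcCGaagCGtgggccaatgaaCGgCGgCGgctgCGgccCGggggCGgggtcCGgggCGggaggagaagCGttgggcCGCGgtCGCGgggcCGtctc
The stretches hold 21 CpG dinucleotides for KDM4C, 22 for KDM4D, 40 for KDM2A and 35 for SETD3.

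CpG-rich promoters were the rule for the whole list. RefSeq promoters were matched for 47 of the 50 genes, 12 of them with several annotated starts. Of the 47, 43 (91.5%) held at least 10 CpG dinucleotides, against 51.7% of 27305 genes with a promoter in the same table, noncoding genes included. The median count was 25 for the list and 10 for all. The exceptions were SETDB1 with 9, NSD1 with 7, SUV39H1 with 5 and PHF8 with 1, and each of these 4 has further annotated starts that were not counted.

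Motif letters were searched on both strands of the same 250 bases. The GC box GGGCGG, which itself holds a CpG, was found in 36 of the 47 (76.6%), against 42.2% of all. The E-box CACGTG, which also holds one, was found in 9 (19.1%) against 6.46%, and the ETS core CCGGAA, likewise with a CpG, in 11 (23.4%) against 14.8%. CCAAT was found in 14 (29.8%) against 33.0%. TATAAA was in 0 of the 47 and in 11.2% of all. The KDM4C stretch held 2 copies each of CACGTG and CCGGAA. The KDM4D stretch held 2 of GGGCGG and 1 each of CCAAT and CCGGAA, the SETD3 stretch 3 of GGGCGG and 1 of CCAAT, and the KDM2A stretch 0 of the 5 motifs. Such matches are letters in a window and say nothing of which factor binds.

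The KDM4 demethylases, which remove di- and trimethyl groups from H3K9, held 1 call in each direction. KDM4C, whose enzyme also acts on H3K36 and carries reader domains for histone methylation, stood at 7.35 in SUDHL6 and 5.94 in HT. The difference was 1.42, or 2.67-fold. Of the genes that reached the dim level, 6.66% differed by at least as much. KDM4D, a gene best known from testis whose enzyme lacks those reader domains, stood at 3.27 in SUDHL6 and 4.68 in HT. Its difference was -1.41. Since 3.27 is under the dim level of SUDHL6, the gene was higher in HT by at least 1.83-fold, and with values raised to the dim level the difference was -0.87, nearer to 0 than those of KDM2A and SETD3. A close relative, KDM4E, lies beside KDM4D in the genome, and how far the probes tell the 2 apart was not tested. The other family members stood close together in the lines. KDM4A stood at 5.85 in SUDHL6 and 5.72 in HT, and KDM4B at 4.60 in SUDHL6 against 4.78 in HT.

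The KDM2 and KDM3 families each held a pair of relatives with unlike differences. KDM2A, a demethylase of H3K36 that binds unmethylated CpG through a CXXC zinc finger, stood at 6.85 in SUDHL6 and 7.92 in HT, or 2.11-fold higher in HT. After quantile or loess normalization its difference of -1.08 became -0.95 or -0.96, below the threshold. KDM2B, which has the same domains and brings a form of Polycomb repressive complex 1 to CpG islands, stood at 5.48 in SUDHL6 and 5.51 in HT. That difference of -0.03 changed sign under both normalizations, the only sign among the 38 that did. KDM3A and KDM3B remove mono- and dimethyl groups from H3K9. KDM3A was lower in SUDHL6, at 6.07 against 6.44 in HT, and KDM3B higher, at 8.14 in SUDHL6 against 7.58 in HT.

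The remaining demethylases differed by less than 0.5. KDM1A, the flavin enzyme LSD1 that acts on H3K4 in the CoREST complex, stood at 8.71 in SUDHL6 and 9.05 in HT. KDM5A, which removes trimethyl groups from H3K4 and binds the retinoblastoma protein, stood at 7.54 in SUDHL6 against 8.0 in HT. Both H3K4 demethylases with a value were thus lower in SUDHL6, and neither was called. PHF8 and PHF2, PHD-finger demethylases of the KDM7 family, differed little, PHF8 at 6.18 in SUDHL6 against 6.31 in HT and PHF2 at 4.81 in SUDHL6 against 4.91 in HT. KDM8 stood at 4.86 in SUDHL6 and 4.48 in HT. Over the 13 demethylase genes the median difference was -0.12, with 4 positive and 9 negative. The median over genes that reached the dim level was -0.05.

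**Figure D2:**
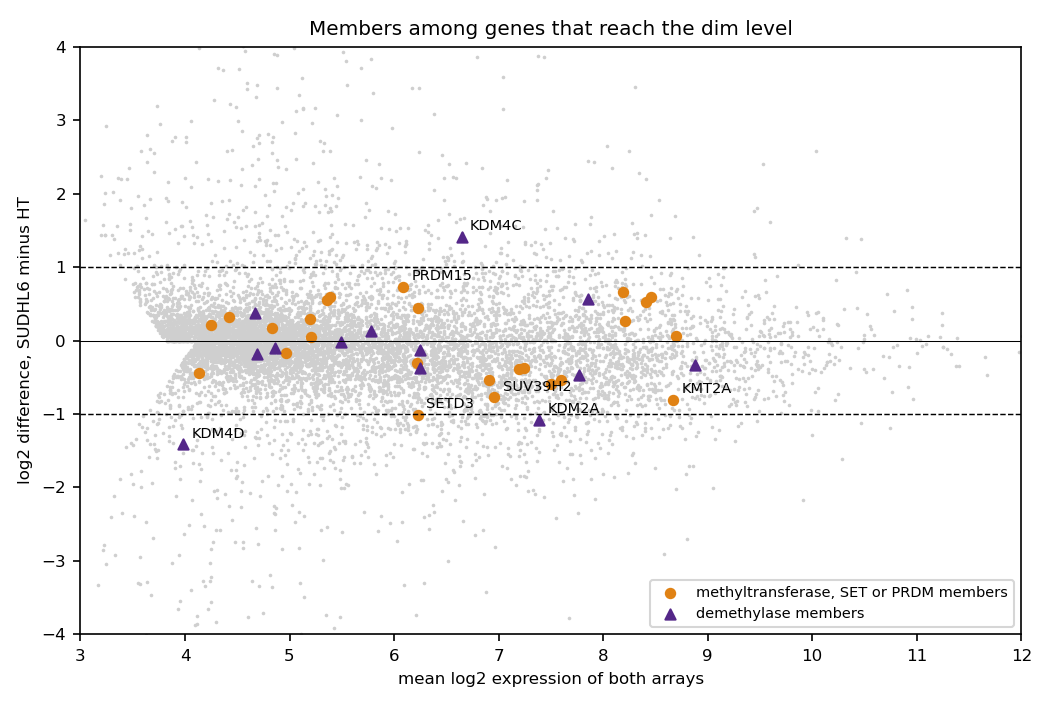
Log2 difference, SUDHL6 minus HT (y axis), against the mean log2 value of both arrays (x axis) for genes that reach the dim level (grey), for methyltransferase, SET or PRDM members (orange circles) and for demethylase members (purple triangles). Dashed lines mark differences of 1 either way, 62 genes outside the axes are not drawn, and the 7 members with the furthest differences are labelled. KDM4C lies above the upper line, and KDM4D, KDM2A and SETD3 lie at or past the lower one.

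The H3K4 methyltransferases differed in both directions, and 0 of 5 were called. KMT2A, the MLL gene of leukaemia translocations, was lower in SUDHL6, at 8.27 against 9.07 in HT, which is 1.75-fold higher. A further probe set of KMT2A alone stood at 5.58 in SUDHL6 and 6.15 in HT, and its difference of -0.57 had the same sign as the -0.80 of the first. A probe set shared with MLLT1, a fusion partner of KMT2A, went the other way, at 5.77 in SUDHL6 against 5.54 in HT. KMT2E, a relative with no settled catalytic activity, was higher in SUDHL6, at 8.76 against 8.16 in HT, or 1.51-fold. The enhancer enzymes KMT2C and KMT2D had similar values in the lines. KMT2C stood at 8.34 in SUDHL6 and 8.08 in HT and KMT2D at 4.89 in SUDHL6 against 5.05 in HT. KMT2C has partial copies elsewhere in the genome, and a probe set shared with BAGE2 and BAGE5 was under the dim level on each array. KMT2B, the closest relative of KMT2A, stood at 4.35 in SUDHL6 against 4.14 in HT, near the dim level.

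Among the H3K9 methyltransferases, 3 were higher and 3 lower in SUDHL6, and 0 of 6 were called. The SUV39H enzymes, which place trimethyl groups on heterochromatin, were both lower in SUDHL6. SUV39H2 stood at 6.57 in SUDHL6 and 7.34 in HT, or 1.71-fold higher in HT, and SUV39H1 at 3.91 in SUDHL6 against 4.35 in HT, close to the dim level. SETDB2 was also lower in SUDHL6, at 7.21 against 7.80 in HT, or 1.5-fold higher in HT. EHMT2, which encodes G9a and dimethylates H3K9 in euchromatin, stood at 5.64 in SUDHL6 and 5.08 in HT, and its partner EHMT1 at 4.92 in SUDHL6 against 4.75 in HT. SETDB1, which silences retroelements with TRIM28, stood at 6.45 in SUDHL6 and 6.01 in HT. The euchromatic G9a pair and SETDB1 thus had positive differences, and the SUV39H pair and SETDB2 negative ones.

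Of the 4 H3K36 methyltransferases with a value, 0 were called. SETD2, the enzyme of H3K36 trimethylation, stood at 8.72 in SUDHL6 and 8.67 in HT. NSD1 and NSD3, which dimethylate H3K36, went opposite ways, with NSD1 at 7.0 in SUDHL6 and 7.39 in HT and NSD3 at 8.67 in SUDHL6 against 8.15 in HT. SETMAR, a SET domain fused to a transposase, stood at 4.58 in SUDHL6 against 4.27 in HT. The range over these 4 genes was -0.39 to 0.52.

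The other SET domain genes held 1 call. SETD3, whose product methylates a histidine of actin, stood at 5.72 in SUDHL6 and 6.73 in HT, or 2.01-fold higher in HT. Its difference of -1.01 lay just past the threshold and became -0.91 after quantile and -0.90 after loess normalization. SETD5 was higher in SUDHL6, at 8.52 against 7.85 in HT, or 1.59-fold. SETD7, which monomethylates H3K4 and other proteins, was lower in SUDHL6, at 7.33 against 7.86 in HT, and so was SMYD2, which also methylates p53, at 6.64 in SUDHL6 against 7.18 in HT. SETD6, an enzyme that methylates the NF-kB subunit RelA, stood at 6.07 in SUDHL6 and 6.37 in HT. SMYD3 stood at 5.34 in SUDHL6 against 5.05 in HT and SMYD4 at 5.23 in SUDHL6 against 5.18 in HT. Here the SMYD genes had unlike signs, and 0 of the 3 were called.

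The PRDM genes, zinc finger proteins with a SET-like domain, differed by less than 1. PRDM15 was higher in SUDHL6, at 6.45 against 5.72 in HT, or 1.66-fold, and PRDM10 was too, at 5.69 in SUDHL6 against 5.09 in HT, or 1.52-fold. PRDM4 was lower in SUDHL6, at 7.06 against 7.43 in HT. Over all 25 methyltransferase, SET and PRDM genes with a value, 14 differences were positive and 11 negative, with a median of 0.06.

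Of the 12 genes without a value of their own, 7 had probe sets shared with other genes, whose values cannot be assigned to either gene. The furthest apart was a probe set of KDM5B, an H3K4 demethylase, and COX7C, a subunit of cytochrome c oxidase. It stood at 2.74 in SUDHL6 and 6.26 in HT and was at least 5.47-fold higher in HT. A probe set of PRDM2, an H3K9 methyltransferase, and C1orf196 stood at 7.63 in SUDHL6 and 6.35 in HT, or 2.43-fold higher in SUDHL6. For NSD2, an H3K36 methyltransferase deregulated by a myeloma translocation, a probe set shared with SCARNA22 stood at 6.30 in SUDHL6 against 5.32 in HT, just under a difference of 1, while another shared with NELFA and MIR943 stood at 5.76 in SUDHL6 against 5.71 in HT. The differences of these 2 probe sets were thus unlike, and since each set is shared with other genes, the gap cannot be assigned to NSD2. SETD4, shared with CBR1-AS1, stood at 4.85 in SUDHL6 and 5.77 in HT. SMYD5, shared with NOTO, stood at 4.28 in SUDHL6 against 4.21 in HT, and KDM6B, the H3K27 demethylase, shared with TMEM88, at 4.0 in SUDHL6 against 3.58 in HT. DOT1L, the H3K79 methyltransferase, shared with ZNF446, had exactly the same value, 5.52, on both arrays. A probe set that PRDM10 shares with FABP1 was under the dim level on each array. No probe set in the annotation used here named SETD1A, SETD1B, ASH1L, KDM1B or KDM7A, so their expression could not be compared. The promoters of SETD1A, ASH1L, KDM1B and KDM7A were among those counted above.

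The differences of the members were set beside those of the genes around them. For each of the 38, the 5 nearest genes on each side that reached the dim level were taken in RefSeq gene order, 10 in all except near chromosome ends. The medians of these neighbours ran from -0.87 to 0.33, with 3 below -0.5 and 0 above 0.5. The sign was that of the member for 25 of the 38. These counts have no background beside them, because neighbours of genes outside the list were not examined. Over all genes 7534 differences were negative and 6157 positive. The neighbours of KMT2A had the lowest median, -0.87 beside -0.80 for KMT2A, and 5 of the 10 were called higher in HT, among them IFT46 (-2.61), ARCN1 (-1.37) and UBE4A (-1.25). The neighbours of SUV39H2 had a median of -0.85 beside -0.77, and those of SETD7 -0.50 beside -0.53. These neighbours scattered widely, from -2.61 to 0.09 for KMT2A, from -4.67 to 1.27 for SUV39H2 and from -2.33 to 0.87 for SETD7.

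The 4 called members were chosen for a difference of at least 1. That they stood further from 0 than the medians of their neighbours was therefore largely fixed by that choice. SETD3 and KDM4D lay inside the range of their neighbours, from -1.46 to 0.63 and from -2.40 to 0.87. The neighbours of KDM4C had a median of -0.17, from -2.65 for ZDHHC21 to 0.60 for UHRF2, and JAK2, the kinase gene at the edge of this stretch, was 4.22 in SUDHL6 and 5.32 in HT. For KDM2A the median was -0.03 and 0 of the 10 neighbours were called. For SETD3 it was -0.12, with 1 neighbour, GSKIP, called higher in HT. For KDM4D it was -0.26, with CWC15 (-1.82) and SESN3 (-2.40) called higher in HT beside it.

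**Figure D3:**
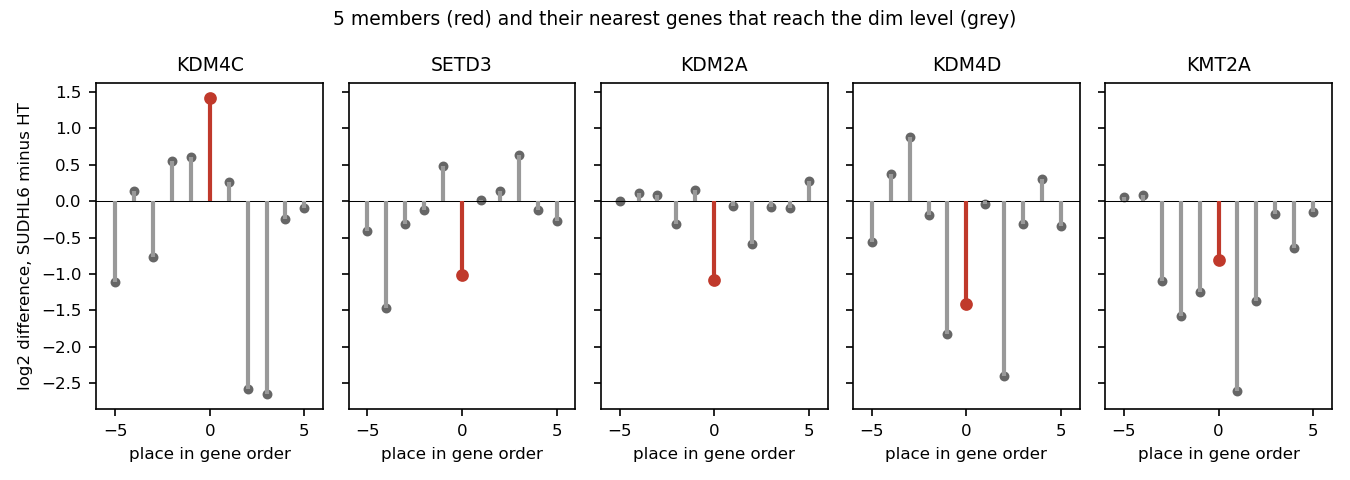
Log2 difference, SUDHL6 minus HT (y axis), of KDM4C, SETD3, KDM2A, KDM4D and KMT2A (red, place 0) and of the 5 nearest genes on each side that reach the dim level (grey), by place in RefSeq gene order (x axis). KMT2A, chosen after its values were seen, lies among neighbours with a median of -0.87. KDM4C (1.42) and KDM2A (-1.08) lie outside the range of their neighbours, and SETD3 and KDM4D lie inside it.

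Partner genes were called at the background share. Over 6 lists of complex partners, readers, related enzymes and cofactor genes, 89 of 112 genes had a value and 81 reached the dim level. Of the 81, 4 were called higher in SUDHL6 and 6 higher in HT, together 12.3%, against 12.3% of all genes that reached the level. The median difference of the 89 was -0.07.

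The shared subunits and other partners of the KMT2 and SETD1 enzymes held 2 calls among 12 genes. TASP1, the protease that cleaves the KMT2A protein into its active pieces, stood at 3.28 in SUDHL6 and 5.03 in HT and was at least 2.32-fold higher in HT. BOD1L1, a protein that works with SETD1A at replication forks, stood at 8.88 in SUDHL6 and 7.86 in HT, or 2.02-fold higher in SUDHL6. The core subunit gene DPY30 stood at 8.54 in SUDHL6 against 7.71 in HT and RBBP5 at 6.54 in SUDHL6 against 7.05 in HT. TASP1, like KMT2A, had a lower value in SUDHL6, and only TASP1 was past the threshold. The 12 partner genes had 6 positive and 6 negative differences, so they showed no common direction.

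Among H3K9 partners and readers, 12 reached the dim level and 2 were called. ATF7IP2, a relative of the SETDB1 cofactor ATF7IP, stood at 5.98 in SUDHL6 and 4.61 in HT, or 2.58-fold higher in SUDHL6. MORC2, an ATPase that compacts chromatin with the HUSH complex, stood at 5.40 in SUDHL6 and 6.61 in HT, or 2.31-fold higher in HT. CBX5, which encodes the H3K9 reader HP1 alpha, stood at 10.41 in SUDHL6 against 11.12 in HT. ATF7IP itself differed by 0.05 and the HUSH subunit gene TASOR by -0.13.

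The DOT1L partners and H3K36 readers also held 2 calls, among 15 genes. AFF3, a subunit of the super elongation complexes, stood at 5.49 in SUDHL6 and 3.91 in HT and was at least 2.60-fold higher in SUDHL6. ZMYND11, a reader of trimethylated H3K36 on histone H3.3, stood at 3.07 in SUDHL6 and 4.73 in HT and was at least 1.89-fold higher in HT, a bound that falls short of the calling threshold. Over the list the median was -0.24, with 3 positive and 10 negative differences and 2 at exactly 0. The median over genes that reached the dim level was -0.05.

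The CoREST complex of KDM1A had 1 call among 13 genes. RCOR1, its scaffold, stood at 6.37 in SUDHL6 and 7.40 in HT, or 2.05-fold higher in HT. KDM1A and the deacetylase genes HDAC1 and HDAC2 had differences of -0.34, -0.23 and -0.26. Each was smaller than the median of 0.36 by which probe sets of the same gene disagreed. The median of the list was -0.23, beside -0.05 over genes that reached the dim level. Of the 13 differences 9 were negative, against 7534 of 14232 over all genes.

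Among other methylation enzymes 1 of 15 was called. PRMT5, an arginine methyltransferase, stood at 6.47 in SUDHL6 and 7.67 in HT, or 2.30-fold higher in HT. KMT5B, an H4K20 methyltransferase, stood at 7.58 in SUDHL6 against 8.07 in HT, and KDM6A, the H3K27 demethylase on the X chromosome, had the same value, 4.95, on both arrays. Of the cofactor genes, 14 reached the dim level. IDH2, a mitochondrial source of 2-oxoglutarate, stood at 6.53 in SUDHL6 and 5.47 in HT, or 2.08-fold higher in SUDHL6. SDHD, a subunit of succinate dehydrogenase, stood at 1.5 in SUDHL6 and 4.84 in HT and was at least 2.03-fold higher in HT. MAT2A, an S-adenosylmethionine synthase gene, stood at 10.17 in SUDHL6 against 10.20 in HT.

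**Figure D4:**
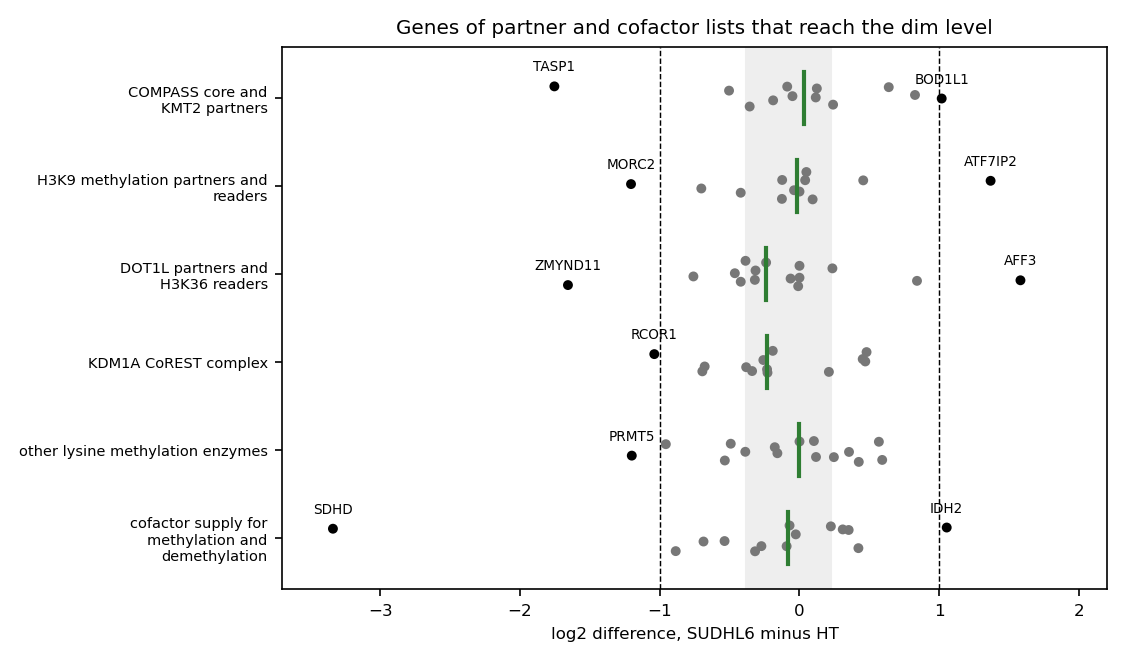
Log2 difference, SUDHL6 minus HT (x axis), of each gene that reaches the dim level in the 6 lists of partners, related enzymes and cofactor genes, with the 10 called genes in black and named. Green bars are list medians, dashed lines mark differences of 1 either way, and the grey band runs from the 25th to the 75th percentile of all genes that reach the dim level (-0.38 to 0.22). Heights within a list only keep points apart.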

How the data were processed

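Per the labels, total RNA of untreated SUDHL6 and HT cells was labelled with biotin and hybridised to 1 exon array each. The authors deposited log2 expression values after RMA, which corrects background, normalizes arrays and summarises probes. The submitters' processing notes name RMA and the Affymetrix Expression Console. Versions, settings and genome build: not given in the sources used here. Precision is limited by the number of arrays.

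GEO's platform annotation named 1 gene for 14432 of 22011 probe sets. Symbols were updated through gene numbers to RefSeq (GRCh38.p14), which matched 14404. Counts, medians and neighbours were computed with pandas 2.3.3 and numpy 2.4.6, lowess (span 0.4) with statsmodels 0.14.6. The code of the calling step was run on simulated data with known shifts larger than the threshold. That run says nothing of how reliable the calls from 1 array a line are. The promoter window left out the bases after the start.

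The members, gene lists and thresholds were chosen with earlier results of these data known. All members are named. Both values were to be given for members with a difference of at least 0.5, for the 2 brightest of a class and for members with several probe sets, and of the partner lists for called genes. DPY30, RBBP5, CBX5, ATF7IP, TASOR, HDAC1, HDAC2, KMT5B, KDM6A, MAT2A and the neighbours shown were picked with their values in view. The alternatives were quantile and loess normalization, raised or other dim levels, other probe set rules and a threshold of 1.5-fold.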

Additional observations from a re-analysis of the deposited data

How the results depend on the processing

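No paired analysis was possible because each line had 1 array. KDM4C kept its call under all 8 alternatives, but only the normalizations changed its difference, from 1.42 to 1.52 after quantile and 1.54 after loess. The other alternatives left its difference as it was and could not have removed the call. Members called higher in HT numbered 3, but 1 (KDM4D) after quantile and 1 after loess normalization, which gives a split of 1 to 1 in place of 1 to 3. With values raised to the dim level 2 remained, KDM2A and SETD3. With probe sets naming several genes included, 2 members were higher in SUDHL6 (KDM4C and PRDM2) and 4 in HT, KDM5B added. At 1.5-fold the counts were 5 and 6 members, and 1058 and 1517 of all genes, higher in SUDHL6 and HT, more because the threshold is lower. The members' median of -0.06 ran to 0.02 after loess. Of the 16 members with a difference of at least 0.5, 0 changed sign under quantile or loess normalization. The mean of all own probe sets changed the value of KMT2A alone, and raised values that of KDM4D alone. Including shared probe sets changed none of the 16, so these alternatives could say little about sign. The shift was at most 0.13 after quantile normalization and 0.54, for KDM4D, with raised values. KDM4D was the only member with a value below the dim level. It and members near that level, such as KMT2B, SUV39H1 and SETMAR, lie where RMA is known to compress differences. Large differences still occurred among dim genes. Of the 225 olfactory receptor genes, 17 (7.56%) differed by at least 1 when no dim level was applied.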

Other observations

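Exactly equal values on both arrays were frequent. They occurred on 681 of 22011 probe sets (3.09%) and for 541 of 14232 genes. Of the 38 enzymes with a value of their own, 0 had equal values, which is near so small a share. The probe set of DOT1L and ZNF446 was among the equal ones, and so was that of KDM6A. How equal values arose was not tested.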
